A study of Mus musculus with 12 samples.

Results

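The change in gene expression that 1 injection of corticosterone brought about in intestinal stem cells (ISCs) was measured by comparing 3 CORT libraries with 3 vehicle libraries, which are 6 of the 12 RNA-seq libraries of the study. Corticosterone is the main glucocorticoid hormone of mice and is released by the adrenal gland during stress. All genes with enough counts in these 6 libraries were tested, which were 14656 of the 47729 genes in the deposited table, and the remaining genes had too few counts. The mice were *Lgr5-EGFP-IRES-CreERT2* animals of both sexes, 8 to 10 weeks old, and were injected intraperitoneally once, on 1 day, with corticosterone at 5 mg/kg (CORT) or with its 20% sulfobutylether-β-cyclodextrin solution alone (vehicle). All groups carry this knock-in allele, in which the *Lgr5* locus, active in stem cells, also drives green fluorescent protein, in only a part of the crypts. Living EpCAM+ CD24- cells with the brightest green fluorescence, negative for CD31, CD45 and TER119, were sorted from small intestinal crypts. The time from injection to sorting and the mouse behind each library are not given in the sources used here, so the p-values below measure the spread between these samples. A further 3 libraries of control mice (Ctrl) and 3 of mice restrained once (stress, with libraries numbered 1+2, 3 and 4+5+6) serve only for the last comparison. In its chronic restraint the study kept food and water from the controls as well, and whether this held for the single restraint is not given in the sources used here.

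The CORT libraries were deeper. Vehicle 3, 5 and 6 held 16465961, 16889139 and 31280267 counts, and CORT 2, 4 and 5 held 69533214, 59689732 and 29426183. Genes with at least 1 count numbered 16743, 16741 and 17795 in the vehicle libraries and 19338, 19763 and 18044 in the CORT libraries. The counts were made from covered bases, 75 to a count, and with reads of 150 bp 1 read pair can thus add 4. A gene at 0 could still have had 3 read pairs, or 12 counts, which is 0.713, 0.698 and 0.388 CPM (counts scaled to library size with the TMM factors, as for all levels below) in vehicle 3, 5 and 6 and 0.179, 0.203 and 0.413 CPM in CORT 2, 4 and 5. These limits cover counting error only. After every library was thinned to the same depth, 150 genes were higher and 112 lower by more than 2-fold, against 166 and 108 without thinning.

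The sorted cells had the markers of ISCs. The summed level of 6 ISC markers (*Olfm4*, *Slc12a2*, *Smoc2*, *Axin2*, *Lgr5* and *Ascl2*) was 9562 to 10435 TPM (a level per transcript length) in vehicle and 9563 to 10563 TPM in CORT, and *Olfm4* was the gene with rank 3 by mean TPM of all genes. *Olfm4* made up most of this sum, with a mean of 8359 TPM in vehicle and 8721 TPM in CORT. *Slc12a2*, *Smoc2* and *Lgr5* had ranks 217, 376 and 2330, with *Lgr5* at a mean of 67.9 TPM. Of the 6 markers 5 had a negative log2 fold change with a median of -0.219, and *Ascl2*, *Lgr5* and *Smoc2* fell (0 to 3 over the alternatives). *Smoc2* went from 580, 604 and 589 CPM to 449, 476 and 509 CPM (-0.31, adjusted p = 0.0474), and missed the threshold without any 1 of the 6 libraries, at 0.0725 to 0.161. *Ascl2* and *Lgr5* are described with the stem cell genes. Markers of blood cells summed to 0.767 to 1.61 TPM over the 6 libraries and those of stromal and endothelial cells to 0.166 to 1.71 TPM. *Ptprc* and *Hba-a1* of blood and *Kdr* and *Col3a1* of vessels and stroma had no count in any of the 6 libraries. *Pecam1*, the gene of CD31, was at 0.95, 0.291 and 0.388 CPM in vehicle and 1.46, 2.35 and 3.23 CPM in CORT (log2 change 2.12 ± 0.54 SE, adjusted p = 0.0427), a call that was lost with an adjusted p of 0.159 without CORT 5, 0.134 without CORT 4, 0.0504 without CORT 2, 0.113 without vehicle 5 and 0.12 without vehicle 6. Goblet cell markers summed to 703, 859 and 1105 TPM in vehicle and 625, 1070 and 862 TPM in CORT, which overlapped. Enterocyte markers summed to 128, 266 and 133 TPM in vehicle and 48.2, 127 and 109 TPM in CORT, so the highest CORT library was just below the lowest vehicle library, and none of the 6 markers passed the test. Of these, *Fabp1* (log2 fold change -1.26, adjusted p = 0.0643) passed with the sex of the mice as a term (0.0123), without vehicle 3 (0.0299) and with no filter on low counts (0.0442). Enteroendocrine markers summed to 8.86 to 35.2 TPM and tuft cell markers to 2.76 to 4.77 TPM. Paneth cell markers were also lower in every CORT library, with 388, 419 and 410 TPM in vehicle and 194, 245 and 202 TPM in CORT, and are described with the antimicrobial genes.

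The libraries also differed by sex. *Xist*, which is made from the inactive X chromosome of females, was at 16.8 CPM in vehicle 3 and 2.27 CPM in CORT 2 and at 703 to 1330 CPM in the other 4 libraries, while the Y-linked gene *Ddx3y* was at 40.5 and 47.9 CPM in the same pair and at most 2.94 CPM in the others. Each group thus held 1 library with the male pattern. The first principal component took 43.4% of the variance and separated CORT from vehicle, and the second took 22.7% and had vehicle 3 and CORT 2 on one side, together apart from the other libraries. With the sex of the mice as a term in the fit, a choice made after seeing the data, 166 genes were higher and 124 lower by more than 2-fold, of which 160 and 102 were among the genes called without it. Libraries of the same group correlated with r = 0.984 to 0.993 across genes and libraries of different groups with 0.978 to 0.984, where genes are not independent replicates.

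Glucocorticoids enter the cell and bind the glucocorticoid receptor, the product of *Nr3c1*, which is held ready by Hsp90 and its cochaperones. The bound receptor moves to the nucleus, where it binds DNA as a dimer at the glucocorticoid response element (GRE), a pair of 6-base sites facing each other across a gap of a few bases, and also acts on other factors without binding DNA itself. Its classical targets include *Fkbp5*, a cochaperone that lowers the affinity of the receptor for hormone, the kinase gene *Sgk1*, and the clock gene *Per1*. Clock genes are further driven through the E-box, which CLOCK and BMAL1 bind, and the D-box, which DBP and TEF activate and NFIL3 represses.

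The promoters of 3 called genes are shown because they hold these motifs, with matches in capitals. They come from RefSeq (GRCm38.p6) and span 250 bases before to 50 after a start site, read 5′ to 3′. The palindromic GRE searched was AGAACA and TGTTCT with 3 bases of any kind between them, the E-box CACGTG and the D-box TTATGNAA, each on both strands. In the *Sgk1* window the capitals mark, in order, an E-box and the GRE, in the *Per1* window an E-box and a D-box, and in the *Per3* window a pair of D-boxes.
*Sgk1* promoter, chr10:21993640-21993939, strand +: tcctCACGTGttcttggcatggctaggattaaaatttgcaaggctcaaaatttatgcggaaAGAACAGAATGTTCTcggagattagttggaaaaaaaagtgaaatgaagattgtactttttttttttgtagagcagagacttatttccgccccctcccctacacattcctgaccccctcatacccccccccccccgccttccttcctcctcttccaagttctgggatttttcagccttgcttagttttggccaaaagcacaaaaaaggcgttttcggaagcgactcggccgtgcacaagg
*Per1* promoter, chr11:69098699-69098998, strand +: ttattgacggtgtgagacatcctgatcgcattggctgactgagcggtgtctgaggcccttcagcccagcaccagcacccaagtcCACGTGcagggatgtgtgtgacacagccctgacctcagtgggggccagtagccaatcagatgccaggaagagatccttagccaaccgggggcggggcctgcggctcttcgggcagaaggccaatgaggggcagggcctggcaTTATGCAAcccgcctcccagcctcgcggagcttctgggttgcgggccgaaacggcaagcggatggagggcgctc
*Per3* promoter, chr4:151044616-151044915, strand -: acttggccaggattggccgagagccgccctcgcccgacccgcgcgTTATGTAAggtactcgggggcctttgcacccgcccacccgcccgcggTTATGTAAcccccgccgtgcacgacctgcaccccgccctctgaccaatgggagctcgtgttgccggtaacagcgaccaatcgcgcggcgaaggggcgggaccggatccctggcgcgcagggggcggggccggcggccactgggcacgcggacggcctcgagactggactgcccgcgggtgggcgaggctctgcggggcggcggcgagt
Windows were at hand for 10135 of the genes tested, and the shares below rest on those of 123 higher and 77 lower genes. The GRE was in 2 of the 12955 windows of all genes tested (0.0154%), and 1 of these was the *Sgk1* window, the only one among 161 windows of the higher genes (0.621%). None of the 92 windows of the lower genes held it. TGTTCT alone, which the GRE contains, was in 14.9% of the windows of higher genes, 13% of those of lower genes and 12.8% of all. The E-box was in 9.32%, 12% and 9.86%, the D-box in 1.86%, 4.35% and 2.02%, and the FoxO site TGTTTAC in 3.73%, 1.09% and 2.84%. A match describes these letters and is not a bound site.

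Corticosterone changed a small share of the transcriptome, more often upward than downward by size. At an adjusted p-value below 0.05 and more than 2-fold, 166 genes were higher (1.13% of those tested) and 108 lower (0.737%) in CORT (edgeR's quasi-likelihood test). Without the fold threshold the direction of the counts turned, with 533 genes higher (3.64%) and 659 lower (4.5%). Leaving out CORT 4 cut these counts to 234 and 269. With no filter on low counts the direction did not turn, at 578 higher and 553 lower genes. Among the 166 higher genes the median log2 fold change was 1.75, or 1.54 with genes at 0 in vehicle set to their lower bound, and 71 changed by more than 4-fold and 39 by more than 8-fold. Of the 148 of these genes that had a count in vehicle, 53 changed by more than 4-fold and 21 by more than 8-fold. Among the lower genes the median was -1.35, and 18 changed by more than 4-fold and 3 by more than 8-fold. The median over all genes tested was 0.014, and 52.1% of them had a positive value. All 274 called genes had the 3 CORT libraries beyond the 3 vehicle libraries. Over all genes, 14.3% had every CORT library above and 14.5% every CORT library below the vehicle libraries. Of the called genes, 147 of the higher and 106 of the lower were protein coding. The higher genes included 60 that overlap a gene on the opposite strand and the lower genes 28, and as no source used here says that strand was used in counting, the reads of such pairs cannot be told apart. Without CORT 4, 104 genes were higher, of which 100 were among the 166.

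**Figure D1:**
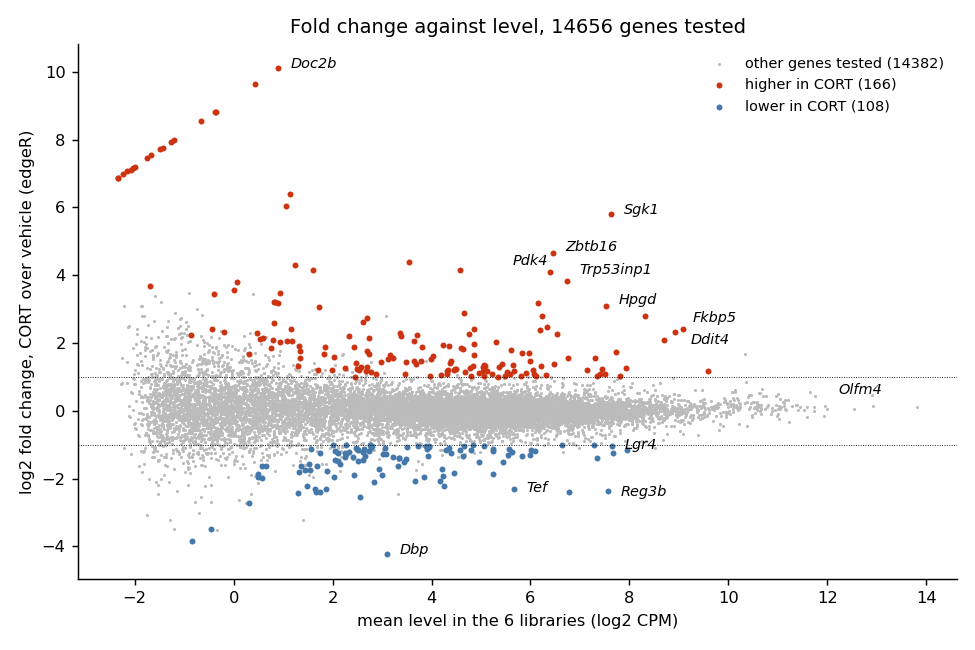
Each point is 1 of the 14656 genes tested, with its mean level over the 6 libraries (log2 CPM) on the x axis and its log2 fold change of CORT over vehicle from edgeR on the y axis. Dotted lines mark 2-fold, red the 166 higher and blue the 108 lower genes, and the red points from upper left to *Doc2b* are genes without a count in vehicle, whose fitted height is not a measured fold.

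The calls differed by level. Of 4 equal bins of genes by level, the lowest (0.199 to 3.65 CPM) held 52 genes higher and 22 lower by more than 2-fold. The next bin (3.66 to 24.8 CPM) had more lower genes, with 50 higher and 61 lower, and the third (24.8 to 65 CPM) held 33 and 16. The highest bin (65.1 to 14469 CPM) held 31 higher and 9 lower by more than 2-fold, but 188 higher and 264 lower at any fold. The median log2 fold change was 0.107 in the lowest bin and -0.013 in the highest. Of the 166 higher genes, 18 had no count in any vehicle library and 31 had at most 12 counts in each of them, and the depth of the CORT libraries moves with these. With at least 10 counts required in every library, 133 genes were higher and 124 lower.

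The receptor gene itself was lower. *Nr3c1* was at 158, 166 and 164 CPM in vehicle and 121, 128 and 129 CPM in CORT (log2 change -0.37 ± 0.07 SE, adjusted p = 0.012), while the adjusted p was 0.0521 without CORT 4. The groups did not overlap, and the decrease was under 2-fold. *Fkbp5* (ENSMUSG00000024222, chromosome 17, 28399095 to 28517524, mm10) rose from 138, 183 and 191 CPM to 864, 957 and 926 CPM, which was 5.35-fold (log2 change 2.42 ± 0.13 SE, adjusted p = 3.9e-05). Of 19 tested genes for the receptor, its chaperones, cofactors and hormone-converting enzymes, *Fkbp5* was the 1 that rose and *Nr3c1* and the drug exporter gene *Abcb1a* were the 2 that fell, which is 5.26% and 10.5% of the list against 3.64% and 4.5% of all genes tested. These last shares are those against which the counts of every list below are to be read. As the lists were chosen with earlier results of these data known, an excess over these shares describes a list and is not a test of it. They are those of the main fit and do not hold for the ranges over the alternatives. Without CORT 4, for instance, 234 genes were higher and 269 lower at any fold of 14993 tested. The median log2 fold change of the list was -0.029, or -0.148 to 0.038 over the alternatives. *Hsp90ab1*, a chaperone of the receptor, was at 3651 to 4041 CPM in vehicle and 3844 to 4753 CPM in CORT, and the cochaperone *Fkbp4* at 708 to 773 and 551 to 719 CPM. *Hsd11b1*, whose enzyme reactivates glucocorticoids, had no count in any library. *Hsd11b2*, whose enzyme inactivates them, was at 20.3, 27.3 and 36.7 CPM in vehicle and 41.3, 49.8 and 41.1 CPM in CORT (adjusted p = 0.0762). *Abcb1a* lost its call without CORT 2, CORT 5, vehicle 3 or vehicle 6, with adjusted p-values of 0.0609 to 0.0886.

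Classical glucocorticoid-induced genes rose in CORT. Of 27 tested, all had a positive log2 fold change with a median of 1.83 (1.67 with *Fam107a*, at 0 in vehicle, at its lower bound), 19 passed the test and 18 of these changed by more than 2-fold. The count of 19 was 11, with limma on log2(FPKM + 1) and no filter, to 21 over the alternatives, and the median 1.168 to 2.183. Their summed level was 1634, 1565 and 1610 TPM in vehicle 3, 5 and 6 and 5833, 4970 and 3439 TPM in CORT 2, 4 and 5. *Sgk1*, a kinase that acts on sodium transport and FoxO factors (ENSMUSG00000019970, chromosome 10, 21882184 to 21999903), was at 6.41, 6.8 and 7.51 CPM in vehicle and 667, 383 and 115 CPM in CORT. The lowest CORT library was still far above the vehicle libraries, and the log2 fold change was 5.80 (55.8-fold, standard error 0.59, adjusted p = 7.2e-04). *Zbtb16*, a transcriptional repressor gene, went from 2.14, 14.5 and 3.76 CPM to 155, 184 and 165 CPM (25.4-fold, adjusted p = 0.00106). Its log2 fold change of 4.67 was 3.86 to 5.76 over the alternatives. *Tsc22d3*, which encodes the anti-inflammatory protein GILZ, went from 28.2, 33.2 and 33.7 CPM to 171, 166 and 123 CPM (4.82-fold, adjusted p = 5.8e-05). Both genes were separated between the groups by a wide gap. The metallothionein genes *Mt1* and *Mt2*, whose products bind zinc and copper, rose 2.39-fold and 5.57-fold (adjusted p = 0.00113 and 8.3e-04). *Hif3a*, an inhibitory Hif subunit, rose 7.43-fold, *Bcl6* 3.55-fold, *Errfi1*, an inhibitor of the EGF receptor, 2.51-fold and *Klf9* 2.79-fold. *Rgs2* rose 4.6-fold, though without CORT 4 its adjusted p was 0.0589. *Txnip*, which slows glucose uptake, went from 481, 453 and 492 CPM to 1418, 1129 and 660 CPM (2.24-fold, adjusted p = 0.0141), with adjusted p-values of 0.0584 without CORT 4, 0.0611 without vehicle 5 and 0.0528 without vehicle 6.
Of the 8 members that did not pass, *Dusp1* was at 0.594, 0.233 and 1.65 CPM in vehicle and 2.36, 2.52 and 2.44 CPM in CORT (adjusted p = 0.155). *Nfkbia*, the inhibitor of NF-κB, had 41.9, 41.7 and 54.5 CPM and 99.2, 69.6 and 57.1 CPM (adjusted p = 0.0542). *Cebpd* was high in CORT 2 alone, at 40.8 CPM against 17.9 and 14.8 CPM in CORT 4 and 5. *Zfp36* had an adjusted p of 0.134, *Lcn2* of 0.0561, *Tat* of 0.211, *Cdkn1c* of 0.369 and *Map3k6* of 0.615.

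**Figure D2:**
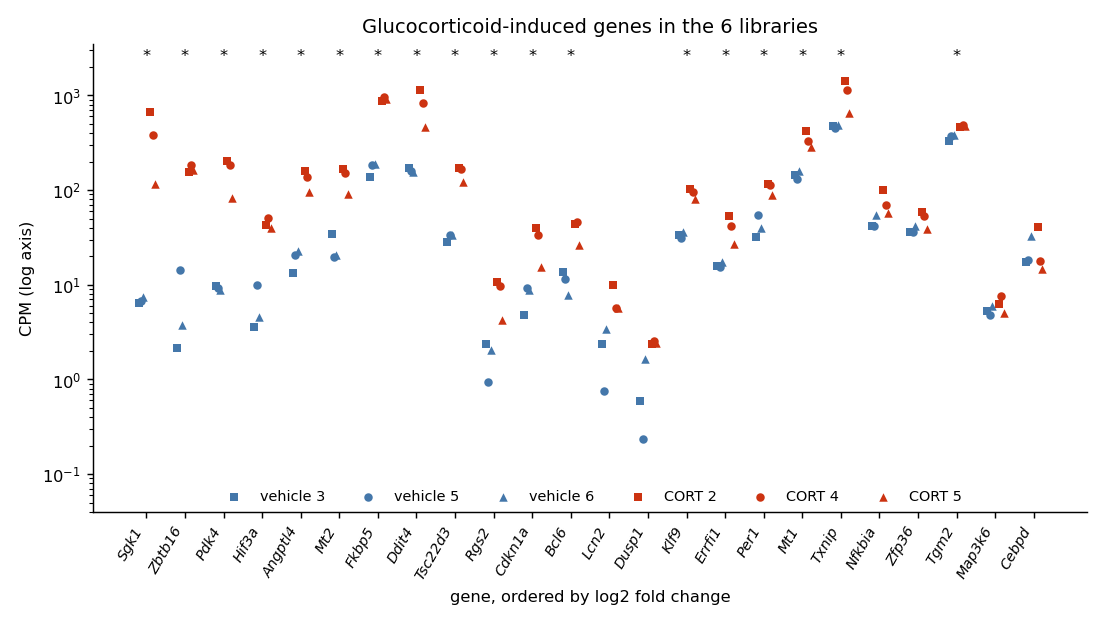
The CPM (log axis) of 24 of the 27 glucocorticoid-induced genes in each vehicle (blue) and CORT (red) library, with symbols for the library and stars for adjusted p below 0.05. *Fam107a*, *Cdkn1c* and *Tat* are left out since a library was at 0, and *Sgk1* spans 115 to 667 CPM in CORT against 6.41 to 7.51 CPM in vehicle.

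The CORT libraries were not equally high. Among the 166 higher genes, CORT 5 was the lowest of the 3 CORT libraries in 99 (59.6%), against 31.9% of all genes tested, and CORT 4 was the highest in 80 (48.2%), against 34.1%. Among the 108 lower genes, CORT 5 was the highest of the 3 in 50 (46.3%, against 31.1% of all genes) and CORT 2 the lowest in 51 (47.2%, against 36.6%). CORT 5 was also the shallowest of the 3, and the part of depth in this order was not tested. *Ddit4* was lowest in CORT 5, with 1133, 837 and 465 CPM in CORT 2, 4 and 5, whereas *Fkbp5* was lowest in CORT 2.

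Genes of the circadian clock changed in opposite directions. Of 22 tested, 4 rose and 8 fell, and the median log2 fold change was -0.135. Over the alternatives 1 to 4 were higher and 4 to 9 lower, and the median was -0.382 to -0.111. *Arntl*, which encodes BMAL1, went from 20.1, 12.7 and 15.7 CPM to 48.7, 33.1 and 33.6 CPM (2.38-fold, adjusted p = 0.0063). Its relative *Npas2* rose 2.64-fold, the repressor *Nfil3* went from 5.46, 5.99 and 6.38 CPM to 26.6, 19 and 20.9 CPM (3.71-fold, adjusted p = 4.4e-04), and *Per1* rose 2.52-fold (adjusted p = 0.00255). The other period genes fell, *Per2* from 31.1, 39.2 and 36.3 CPM to 13.8, 15.4 and 12.7 CPM (log2 fold change -1.35, adjusted p = 6.5e-04) and *Per3* from 21.3, 20.9 and 19.7 CPM to 10.8, 10.7 and 6.88 CPM (-1.12, adjusted p = 0.00768). The output factor *Dbp* (ENSMUSG00000059824, chromosome 7, 45705247 to 45710203) fell from 10.5, 13.4 and 25.1 CPM to 0.896, 0.93 and 0.756 CPM, a log2 fold change of -4.24 (standard error 0.35, adjusted p = 2.7e-04). Its relative *Tef* fell from 79.2, 81.4 and 92.9 CPM to 15.9, 19 and 16.8 CPM (-2.30 ± 0.10 SE, adjusted p = 1.2e-05). The groups were clear of each other for each of these genes. *Cry1*, *Cry2* and the repressor genes *Nr1d1* and *Nr1d2* also fell, at log2 fold changes of -1.11, -0.82, -0.90 and -0.71. *Clock* was at 67.8 to 71.4 CPM in vehicle and 56.4 to 66.1 CPM in CORT (adjusted p = 0.3). *Dbp* overlaps *Sphk2* and *Tef* overlaps *Gm17597* on the opposite strand. *Cry1* lost its call without CORT 4, CORT 5, vehicle 3 or vehicle 6, with adjusted p-values of 0.0719 to 0.131. The hour of collection of each library is not given in the sources used here, so its part in these changes was not tested.

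A few genes of growth control changed strongly. Of 23 tested genes of mTORC1, the kinase complex that drives growth, and of its regulators, 3 rose, none fell and the median log2 fold change was 0.013, or -0.054 to 0.064 over the alternatives. The 3 were the inhibitors *Ddit4* (4.98-fold, adjusted p = 0.00117), *Sesn1*, which went from 21.6, 24 and 24.6 CPM to 138, 137 and 90.7 CPM (5.19-fold, adjusted p = 1.0e-04), and *Eif4ebp3* (2.66-fold, adjusted p = 0.0162, and 0.061 without CORT 4 or 0.0508 without CORT 5). *Trp53inp1*, a p53 target that promotes autophagy and cell death, went from 15.1, 15.4 and 11.9 CPM to 224, 220 and 154 CPM (14.2-fold, adjusted p = 1.2e-05). Of 27 p53 targets, 6 rose (3 to 6 over the alternatives) and 1, *Aen*, fell. *Cdkn1a*, the gene of the cell cycle inhibitor p21, went from 4.75, 9.36 and 8.81 CPM to 40.1, 33.3 and 15.6 CPM (3.86-fold, adjusted p = 0.011), and *Btg2* rose 2.95-fold (adjusted p = 0.00929). Among 24 regulators of G1, 6 rose (2 to 8 over the alternatives), among them *Ccng2* (2.33-fold) and *Btg1* (1.64-fold), and 2 fell, among them *Ccnd2*, from 451, 575 and 567 CPM to 265, 319 and 288 CPM (log2 fold change -0.87, adjusted p = 0.00226). *Ccnd1* was at 309, 344 and 373 CPM in vehicle and 393, 449 and 421 CPM in CORT (adjusted p = 0.0916).
Genes of the later cell cycle leaned upward at the same time. Of 48 genes of G2 and mitosis, 41 had a positive value with a median of 0.257, 11 rose and none fell, each by less than 2-fold. *Nusap1*, a spindle protein gene, went from 71.5, 85.7 and 67.7 CPM to 128, 121 and 119 CPM (1.64-fold, adjusted p = 0.0027), and the kinesin gene *Kif20b* rose 1.42-fold (adjusted p = 0.00645). The count of 11 was 0 to 15 over the alternatives. Of 44 S phase genes, 9 rose and 2 fell with a median of 0.122, and the count of 9 was 1 to 11 over the alternatives. *Rrm2*, a subunit of ribonucleotide reductase, went from 56.1, 48 and 45.2 CPM to 99.8, 99.8 and 97.6 CPM (1.99-fold, adjusted p = 4.3e-04). *Mki67*, a marker of cycling cells, was at 283, 290 and 248 CPM in vehicle and 306, 322 and 303 CPM in CORT (adjusted p = 0.226). Among 24 regulators of apoptosis, 5 rose (2 to 5 over the alternatives) and 1 fell, and those that rose included the survival genes *Bcl2* (2.54-fold, adjusted p = 0.00299) and *Bcl2l1* (1.99-fold, adjusted p = 0.00131) as well as the death-promoting *Bcl2l11* (1.64-fold, adjusted p = 0.00993, and 0.0575 without CORT 4).

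In the list of FoxO factors, which insulin signalling keeps out of the nucleus, of insulin signalling genes and of FoxO targets, more genes rose than fell. Of 31 genes, 10 rose and 1 fell, with a median of 0.039. The count of 10 was 4 to 11 over the alternatives, and the median -0.02 to 0.088. The genes that rose included *Sgk1*, *Bcl6*, *Klf15*, *Ccng2* and *Bcl2l11*, each given with another list. *Foxo3* rose 1.43-fold (adjusted p = 0.00729), and *Foxo1* was at 47.9 to 52.1 CPM in vehicle and 40.2 to 41.6 CPM in CORT (adjusted p = 0.0574). *Prkag3*, a subunit of AMP-activated kinase, went from 0.238, 0.465 and 0.324 CPM to 2.42, 4.25 and 2.92 CPM (adjusted p = 0.0025). *Irs1*, an adapter of the insulin receptor, rose 2.23-fold (adjusted p = 0.0142, and 0.0509 without CORT 4 or 0.0554 without CORT 5). *Pik3ap1*, an adapter of phosphoinositide 3-kinase, fell from 20.6, 27.3 and 20 CPM to 4.57, 6.02 and 7.26 CPM (log2 fold change -1.94, adjusted p = 9.7e-04).

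Genes of stem cell identity and of the signals that hold it were lower in part. Of 30 stem cell signature genes, 9 fell, 2 rose and 21 had a negative value, with a median of -0.222. Over the alternatives 4 to 11 were lower and 0 to 3 higher. *Lgr4*, a receptor for R-spondin and a relative of *Lgr5*, fell from 263, 245 and 297 CPM to 119, 123 and 154 CPM (log2 change -1.03 ± 0.12 SE, adjusted p = 0.0011). *Scn2b*, a sodium channel subunit, fell from 145, 122 and 132 CPM to 62.5, 59.1 and 77.1 CPM (-1.01, adjusted p = 0.00108). *Ascl2*, a transcription factor that ISCs need, fell by 1 on the log2 scale (adjusted p = 0.0114), with an adjusted p of 0.0588 without CORT 4. *Lgr5* was at 210, 194 and 194 CPM in vehicle and 128, 159 and 159 CPM in CORT (-0.43, adjusted p = 0.0277), and missed the threshold without any 1 of the 6 libraries, at 0.053 to 0.0723. *Olfm4* was at 6880 to 7627 CPM in vehicle and 7676 to 9099 CPM in CORT (adjusted p = 0.42). *Axin2*, a target of Wnt, was at 461 to 564 CPM and 418 to 525 CPM (adjusted p = 0.541), and these groups overlapped. Of all genes tested, 4.5% fell, against 30% of the signature genes. Among 9 tested markers of reserve and revival stem cells, *Lrig1* fell (-0.53, adjusted p = 0.011, and 0.0615 without CORT 4).
Of 33 Wnt pathway genes, 7 fell (3 to 8 over the alternatives) and 1 rose. *Fzd7*, a Wnt receptor of ISCs, fell from 85.7, 92.8 and 88.2 CPM to 30.8, 38.2 and 50.4 CPM (-1.17 ± 0.16 SE, adjusted p = 0.00249), and its relative *Fzd2* fell by 0.89 (adjusted p = 0.00508). *Mycn* rose 2.91-fold from 3.5, 6.16 and 3.63 CPM. *Myc* was at 188, 299 and 315 CPM in vehicle and 166, 165 and 218 CPM in CORT (-0.55, adjusted p = 0.112), with an adjusted p of 0.048 with the sex term and 0.0147 without vehicle 3. Eph receptors and ephrins, which place cells along the crypt, did not include a gene that rose, and 6 of 14 fell (4 to 8 over the alternatives) with a median of -0.363. *Efna3* fell from 47.3, 46.3 and 43.3 CPM to 13.1, 15.4 and 20.3 CPM (-1.50, adjusted p = 8.3e-04) and *Epha2* by 1.14 (adjusted p = 0.00542). Of 20 Notch pathway genes, 4 fell (2 to 6 over the alternatives) and none rose. *Nrarp*, a target and feedback inhibitor of Notch, fell from 81.3, 97.6 and 107 CPM to 39.5, 38.9 and 47.8 CPM (-1.19, adjusted p = 7.2e-04) and *Sox4* by 0.89 (adjusted p = 0.00292). The remaining pair were *Lfng* and the ligand *Dll1* (-0.58 and -0.48). *Lfng* missed the threshold at 0.061 without CORT 4, and *Dll1* at 0.0622 without CORT 2, 0.0912 without CORT 4 and 0.0522 without vehicle 3.
Growth factor signalling held more genes that fell than rose. Of 28 genes for ErbB, FGF and insulin receptors, ligands and inhibitors, 8 fell (4 to 8 over the alternatives) and 2 rose. *Fgfr2* fell from 75.3, 63.6 and 61.5 CPM to 23.8, 28.7 and 28.2 CPM (-1.32 ± 0.11 SE, adjusted p = 3.0e-04). The deposited model of *Fgfr2* spans 2.96 Mb and takes in all or part of 34 genes on the same and 33 on the other strand, and how reads were shared among these is uncertain. The EGF receptor ligand gene *Hbegf* fell from 8.26, 8.03 and 9.49 CPM to 3.63, 3.57 and 3.85 CPM (-1.23, adjusted p = 0.00487). Among 11 phosphatases that switch off MAP kinases, 4 fell and none rose, with the smallest adjusted p for *Dusp4* (-1.37, adjusted p = 0.00176). The other 3, *Dusp5*, *Dusp7* and *Dusp9*, each missed the threshold without 4 or 5 of the libraries in turn, with adjusted p-values up to 0.103, 0.15 and 0.0856. Of 22 BMP and TGF-beta genes, *Smad4* and *Smad7* rose (1.24-fold and 1.47-fold) and *Tgfbr2* fell (-0.49), which is 9.09% and 4.55% of the list, and all 3 missed the threshold in at least 5 of the 6 fits without 1 library.

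**Figure D3:**
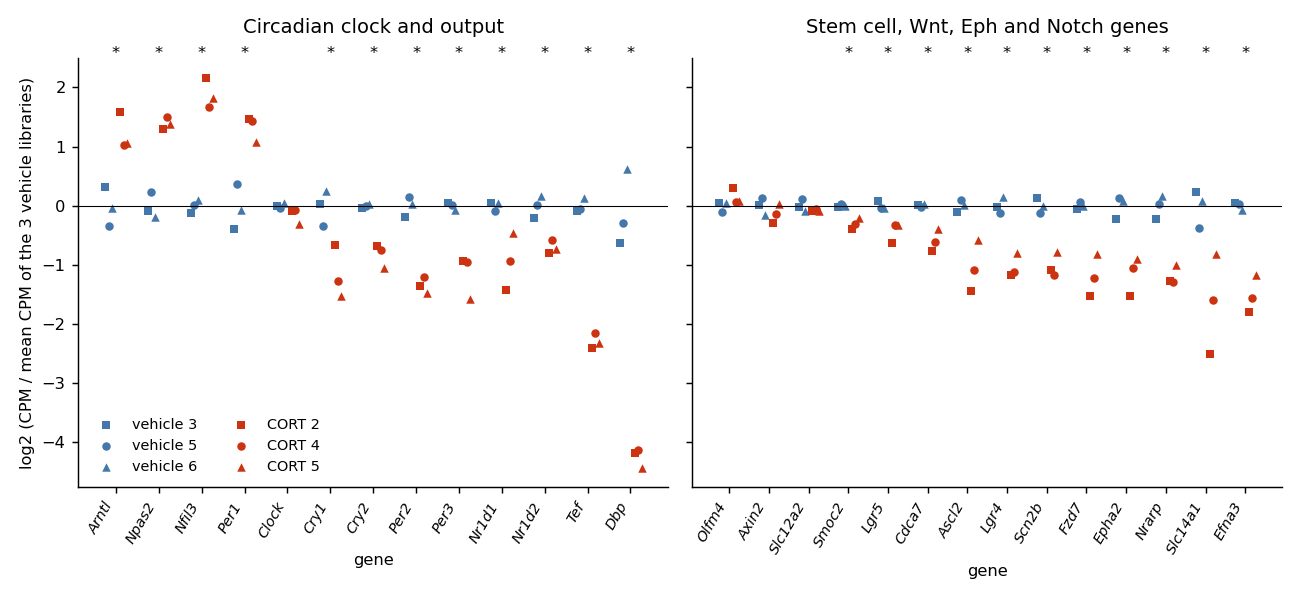
Each symbol is the level of a gene in 1 vehicle (blue) or CORT (red) library, as log2 of its CPM over the mean CPM of the 3 vehicle libraries, for clock genes (left) and for genes of stem cells, Wnt, Eph and Notch signalling (right), with stars for adjusted p below 0.05. *Arntl*, *Npas2*, *Nfil3* and *Per1* lie above the vehicle libraries, and *Tef* and *Dbp* lie furthest below them.

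Several genes of metabolism rose. *Hpgd* (ENSMUSG00000031613, chromosome 8, 56294552 to 56321046), whose enzyme inactivates prostaglandins, had the smallest adjusted p of all genes. It went from 41, 37.3 and 37.7 CPM to 370, 343 and 284 CPM (8.58-fold, log2 change 3.10 ± 0.11 SE, adjusted p = 4.1e-06). It was the 1 gene that rose among 13 of prostaglandin metabolism, and none fell. *Pdk4*, which turns off the entry of pyruvate into the citric acid cycle, went from 9.62, 9.19 and 8.87 CPM to 205, 185 and 83.4 CPM (17.1-fold, adjusted p = 1.8e-04). *Angptl4*, an inhibitor of lipoprotein lipase, went from 13.4, 20.6 and 22.5 CPM to 159, 139 and 95.4 CPM (6.9-fold, adjusted p = 2.5e-04). The lowest CORT library was several times the highest vehicle library in all 3 genes. Of 40 genes of glucose handling 5 rose and 5 fell, with 4 to 6 higher and 1 to 5 lower over the alternatives. *Arrdc3* rose 3.64-fold, the sodium-glucose cotransporter *Slc5a1* 1.75-fold and *Hk2* 1.68-fold, and the fructose transporter *Slc2a5* fell by 1.49 on the log2 scale (adjusted p = 0.00696).
Of 39 genes of fat oxidation and ketogenesis, 6 rose and 7 fell, with a median of -0.206. Those that rose included the regulators *Ppara* (2.47-fold, adjusted p = 0.00916) and *Ppargc1a* (2.77-fold, adjusted p = 0.00117) and the ligase *Acsl1* (2.34-fold, adjusted p = 8.3e-04). *Acadl*, an enzyme of beta oxidation, fell from 180, 196 and 211 CPM to 132, 121 and 119 CPM (-0.66, adjusted p = 0.00199). *Creb3l3* fell by 1.14 with an adjusted p of 0.0381, and of 0.0932 to 0.129 without CORT 2, CORT 4, CORT 5, vehicle 5 or vehicle 6. The count of 7 was 1 to 14 over the alternatives. Of 37 genes of cholesterol and fatty acid synthesis, *Idi1* rose 1.5-fold and 3 fell (0 to 4 over the alternatives, in either direction). These are 2.7% and 8.11% of the list, against 3.64% and 4.5% of all genes, with the smallest adjusted p for *Acacb* (-1.83, adjusted p = 0.00607). Of 33 genes of amino acid and nitrogen handling, 5 rose (2 to 7 over the alternatives) and 2 fell. *Glul*, the gene of glutamine synthetase, went from 148, 161 and 164 CPM to 790, 730 and 513 CPM (4.29-fold, adjusted p = 1.3e-04). Of 42 detoxification genes, 7 rose and 1 fell, with a median of 0.464. *Gstm3* rose 2.14-fold, *Sult1d1* 2.1-fold and *Nr1i2*, the pregnane X receptor, went from 69.7, 78.1 and 76.9 CPM to 125, 128 and 130 CPM (1.7-fold, adjusted p = 5.9e-04). The count of 7 was 2 to 14 over the alternatives.
Further lists held a few genes that changed. *Fut4*, a fucosyltransferase, went from 29.3, 27 and 31.6 CPM to 98.4, 101 and 87.1 CPM (3.25-fold, adjusted p = 4.0e-05), in a list of 15 in which 3 rose and 1 fell. The count of 3 was 1 to 4 over the alternatives. *Fut8* (0.31, adjusted p = 0.0481) missed the threshold in each of the 6 fits without 1 library (up to 0.167) and *St3gal6* (0.35, adjusted p = 0.0486) without any library but vehicle 6 (up to 0.194). Of 12 Krüppel-like factors, 5 rose (2 to 5 over the alternatives), among them *Klf9*, *Klf15* (3.14-fold) and *Klf13* (1.69-fold), and 3 fell, among them *Klf16* (-0.98, adjusted p = 0.00221). *Herpud1*, which helps remove unfolded proteins from the endoplasmic reticulum, went from 66.5, 90.2 and 85.5 CPM to 646, 580 and 452 CPM (6.91-fold, adjusted p = 4.7e-05), in a list of 33 genes of the unfolded protein response in which 2 rose and 4 fell (0 to 4 over the alternatives). *Xbp1*, a factor of that response, fell from 116, 124 and 174 CPM to 63, 77.2 and 88.4 CPM (-0.86, adjusted p = 0.0142, and 0.0606 without CORT 4). *Herpud1* overlaps *Gm15890* on the opposite strand. Of 20 genes of ion and water transport, 4 rose (2 to 5 over the alternatives), among them *Sgk1*, the sodium-proton exchanger *Slc9a2* (1.75-fold) and the water channel *Aqp1* (1.48-fold, at 0.0615 without CORT 4 and 0.0582 without CORT 5), and the potassium channel subunit *Kcne3* fell from 307, 306 and 411 CPM to 125, 153 and 186 CPM (-1.15, adjusted p = 0.00326). Of 15 genes of the oxygen response, *Hif3a* and *Epas1* rose (7.43-fold and 1.97-fold) and *Hif1a* fell (-0.44, adjusted p = 0.00607).
Most members of the large sets for growth and respiration did not pass. Of 47 ribosome biogenesis genes, 42 had a negative value with a median of -0.211, 9 fell and none rose, with the smallest adjusted p for *Nop2* (-0.50, adjusted p = 0.00697). The count of 9 was 1 to 13 over the alternatives. Of 78 nuclear genes of oxidative phosphorylation, 74 had a positive value with a median of 0.208 and 4 rose (*Atp5k*, *Ndufa4*, *Cox7b* and *Ndufb2*), which is 5.13% against 3.64% of all genes. Of 84 cytosolic ribosomal protein genes, 80 had a positive value with a median of 0.128 and none passed in either direction. Those medians were 0.141 and 0.055 on the log2(FPKM + 1) scale, where the median of all genes was -0.05. All 13 transcripts of the mitochondrial genome had a positive value with a median of 0.563, and *mt-Nd6* passed (adjusted p = 0.0448). The count of 4 was 0 to 19 over the alternatives, and that of 1 was 0 to 7. Without 1 library the 4 genes missed the threshold, *Atp5k* without CORT 4, CORT 5 or vehicle 5 (up to 0.0902), *Cox7b* without CORT 2, CORT 5, vehicle 3 or vehicle 5 (up to 0.105), *Ndufa4* without any library but vehicle 6 (up to 0.0838) and *Ndufb2* without any of the 6 (up to 0.134). *mt-Nd6* missed it without CORT 4, CORT 5, vehicle 5 or vehicle 6 (up to 0.145). The mitochondrial share of all counts was 2.41%, 1.83% and 1.43% in vehicle and 1.79%, 3.54% and 2.63% in CORT, so the groups overlapped. Of 36 autophagy genes, *Atg14* rose and *Tfeb* fell, 2.78% in each direction and thus below the shares of all genes, with adjusted p-values of 0.0912 and 0.113 without CORT 4.

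**Figure D4:**
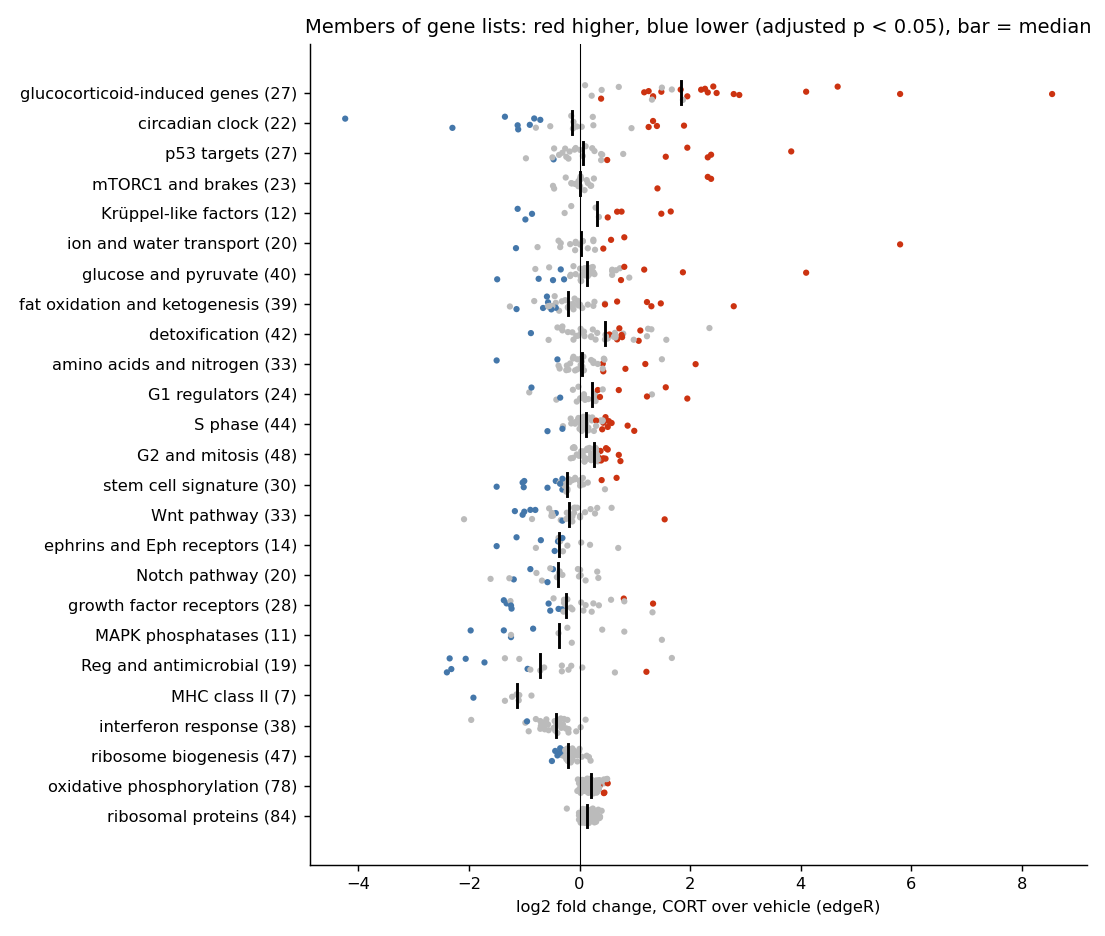
Each point is 1 tested gene of a list (number tested in brackets), placed by its log2 fold change of CORT over vehicle from edgeR, red if higher and blue if lower at an adjusted p below 0.05, with a black bar at the median of the list. The median of the glucocorticoid-induced genes is 1.83, and the rightmost point of that row is *Fam107a*, which had no count in vehicle.

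Some genes of epithelial defence fell. Of 19 genes of Reg proteins, antimicrobial products and the IL-22 axis, 6 fell and 1 rose, with a median of -0.715, and the count of 6 was 1 to 10 over the alternatives. *Reg3b*, which encodes a bactericidal lectin, was at 224, 162 and 564 CPM in vehicle and 48.1, 35.3 and 105 CPM in CORT (log2 change -2.35 ± 0.51 SE, adjusted p = 0.0226), and *Reg3g* at 159, 72.5 and 319 CPM and 29.6, 18.4 and 57.9 CPM (-2.40 ± 0.53 SE, adjusted p = 0.0255). The vehicle libraries varied several-fold but did not overlap with CORT. *Stat3*, the factor that IL-22 activates, fell from 76.5, 77.2 and 99.2 CPM to 51.4, 37.5 and 42.9 CPM (-0.94, adjusted p = 0.00409), and its feedback inhibitor *Socs3* fell by 2.06 (adjusted p = 0.0285). The NADPH oxidase gene *Duox2* and its partner *Duoxa2* fell by 1.72 and 2.32. The IL-22 receptor gene *Il22ra1* rose from 13.8, 12.6 and 10.2 CPM to 26.5, 32.2 and 26 CPM (2.32-fold, adjusted p = 0.0022). The decreases of *Reg3b*, *Reg3g* and *Socs3* were smaller without vehicle 6, at log2 changes of -1.63, -1.73 and -1.34. *Reg3b* and *Reg3g* missed the threshold without CORT 2, CORT 4 or vehicle 6 (adjusted p of 0.0583 to 0.0889 and 0.0768 to 0.0955). *Socs3*, *Duox2* and *Duoxa2* also missed it without vehicle 6, at 0.0725, 0.0875 and 0.132, and without CORT 4, at 0.106, 0.11 and 0.142. *Socs3* had 0.0778 without CORT 2 and 0.0526 without vehicle 5, *Duox2* had 0.0834 without CORT 5 and 0.0698 without vehicle 3, and *Duoxa2* had 0.0948 without CORT 2, 0.0722 without CORT 5 and 0.0823 without vehicle 3.
Of the 6 Paneth cell markers, genes of the antimicrobial neighbours of ISCs, 3 fell. *Mmp7*, which activates defensins, fell from 79.1, 92.6 and 99.9 CPM to 31.8, 35.8 and 42.1 CPM (-1.32 ± 0.12 SE, adjusted p = 4.8e-04), and *Itln1* and *Defa24* fell by 0.68 and 0.67 (adjusted p = 0.0384 and 0.0326). *Itln1* missed the threshold without CORT 4, CORT 5, vehicle 3 or vehicle 5 (up to 0.142), and *Defa24* without CORT 2, CORT 5 or any vehicle library (up to 0.11). *Lyz1*, the lysozyme gene of these cells, was at 33.1, 31.1 and 39.9 CPM in vehicle and 27.4, 25.6 and 20.6 CPM in CORT (adjusted p = 0.0637). All 6 Paneth cell markers had a negative value. The sort removed CD24+ cells, which Paneth cells are, and whether fewer such cells or less RNA per cell lie behind these values cannot be told apart in sorted bulk samples. *Defa20* and *Defa2* fell by 2.55 and 2.39 (adjusted p = 8.3e-04 and 0.00198), and belong to a family of near-identical genes whose counts are uncertain.
Of the 7 tested MHC class II genes, which present antigen, all had a negative value with a median of -1.136. *Ciita*, their master regulator, was the 1 that fell, from 23.1, 32.5 and 33.1 CPM to 10.2, 4.7 and 8.67 CPM (-1.92 ± 0.27 SE, adjusted p = 0.00355). *Cd74* was at 375, 643 and 480 CPM in vehicle and 370, 77.8 and 258 CPM in CORT (adjusted p = 0.18), lowest in CORT 4, and the structural genes followed the same order. Of 38 interferon response genes, 36 had a negative value with a median of -0.43, and *Irf8* fell from 141, 136 and 158 CPM to 74.5, 67.1 and 84.9 CPM (-0.95, adjusted p = 9.6e-04). The summed level of that list was 8532, 4643 and 6523 TPM in vehicle 3, 5 and 6 and 7056, 3395 and 3581 TPM in CORT 2, 4 and 5, so it was highest within each group in the library with the male pattern. The median of the list was -1.271 with 10 lower genes without CORT 2, -0.093 without vehicle 3, -0.151 without CORT 4, -0.249 without CORT 5, -0.792 without vehicle 5 and -0.716 with 7 lower genes with the sex of the mice as a term. Of 25 NF-κB genes, 2 rose and 2 fell, and *Bcl3* fell from 39.3, 48.3 and 89.1 CPM to 15, 13.9 and 19.9 CPM (-1.87, adjusted p = 0.0047). Of 20 immediate early genes, *Btg2* rose and *Cyr61* and *Junb* fell (-1.35 and -0.81). *Cyr61* and *Junb* missed the threshold without 4 libraries each in turn, up to 0.0718 and 0.134. Of 29 brush border genes, 3 rose and 2 fell, with 1 to 3 in each direction over the alternatives. *Slc5a1* was given above, and *Dpp4* (0.38, adjusted p = 0.0183) missed the threshold without CORT 4, CORT 5 or vehicle 5 (up to 0.0834) and *Fabp2* (0.46, adjusted p = 0.0251) without CORT 4, CORT 5, vehicle 3 or vehicle 5 (up to 0.103) and with all 12 libraries in 1 fit (0.387).

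The genes with the largest fitted folds were near or below what the vehicle libraries could show. In 18 higher genes no vehicle library had a count, and only 10 of them had a mean in CORT above the mean floor of the vehicle libraries of 0.6 CPM. *Doc2b*, a calcium sensor of vesicle release, was at 4.09, 5.06 and 2.03 CPM in CORT, at least 6.21-fold higher than 12 counts per vehicle library allow. *Frmpd1* was at least 2.6-fold higher, *Fam107a*, a gene that glucocorticoids induce, at least 2.11-fold and *Sfrp2*, a secreted Wnt inhibitor, at least 1.45-fold. *Lrrc8c*, *Slc37a2*, *Eva1c* and *Xkrx* had bounds of 1.39, 1.24, 1.19 and 1.05-fold. All of these but *Doc2b* and *Fam107a* missed the threshold in at least 1 fit without a library, with adjusted p-values up to 0.0889 for *Xkrx*, whereas *Doc2b* passed in all alternatives that could be run. Among the lower genes with the largest folds, *Chac1* was at 1.25, 0.698 and 1.2 CPM in vehicle and 0.119, 0.0677 and 0 CPM in CORT, *Il34* at 1.78, 0.756 and 1.52 CPM and 0.0896, 0.237 and 0 CPM, and *Hspa1a* at 1.13, 2.38 and 2.91 CPM and 0.403, 0.0677 and 0.55 CPM, with at most 37, 47 and 90 counts in any vehicle library and 8, 14 and 27 in any CORT library. *Hoxb9* was at 7.48, 2.68 and 6.9 CPM and 1.36, 1.39 and 0.447 CPM. These 4 missed the threshold without at least 3 of the libraries in turn, with adjusted p-values up to 0.113, 0.128, 0.147 and 0.0699.
Further genes with the smallest adjusted p-values rose from a level well above the floor. *Clic4*, a chloride channel protein gene, went from 80.5, 87.5 and 72.9 CPM to 250, 236 and 219 CPM (2.92-fold, adjusted p = 5.4e-05), *Cables1* from 23.2, 24.4 and 24 CPM to 63.4, 58.1 and 63.3 CPM (2.58-fold, adjusted p = 7.1e-05) and *Tfcp2l1*, a transcription factor gene, from 9.98, 15.8 and 16.5 CPM to 108, 167 and 112 CPM (9.05-fold, adjusted p = 1.3e-04). *N4bp2l1* rose 4.12-fold and *Fam134b*, a receptor for autophagy of the endoplasmic reticulum, 3.28-fold. Among the lower genes, *Zfpm1*, a cofactor of GATA factors, fell from 291, 295 and 272 CPM to 125, 107 and 133 CPM (-1.24, adjusted p = 1.8e-04), *Lipg*, a lipase gene, from 33.1, 34.5 and 26.6 CPM to 5.24, 5.92 and 9.22 CPM (-2.22, adjusted p = 7.1e-04), and *Dok7* from 19.4, 21 and 20.9 CPM to 3.91, 6.36 and 4.23 CPM (-2.08, adjusted p = 6.5e-04). *Fam83e* and *Fam222a* fell by 1.01 and 1.18. Every one of these had an adjusted p below 0.05 in all alternatives, in which the log2 fold change of *Fam83e* was -1.09 to -0.99, at the edge of the 2-fold threshold.

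The same genes were then set beside restraint stress, which raises endogenous corticosterone. The 2 comparisons share no library. Of the 166 genes higher in CORT, 142 were also tested in stress vs. Ctrl, 136 of these had a positive value there and 56 rose, 37 of them by more than 2-fold, with none that fell. Over all 13722 genes tested in stress, 1.3% rose (0.612% by more than 2-fold) and 0.59% fell (0.138% by more than 2-fold). The median log2 fold change of these genes in stress was 0.81. Of the 108 lower genes, 106 were tested in stress, 79 had a negative value, 16 fell and 4 rose, and the median was -0.38. The difference between both effects was tested over the 12 libraries as an interaction (edgeR's quasi-likelihood test), which 56 of 14415 genes passed (0.388%), 28 in each direction, with 1798 at an unadjusted p below 0.05. Among the genes called in CORT it was passed by 13 of 158 higher and 9 of 108 lower genes. This count of 56 was 12 without Ctrl 1, 13 without Ctrl 2 or CORT 4, 20 without stress 1+2, 22 without CORT 2, 24 without CORT 5, 29 without vehicle 5, 30 without vehicle 6 or Ctrl 3 and 241 without stress 3, so it depended on single libraries of all 4 groups. All 3 Ctrl libraries and 2 of the 3 stress libraries had the male pattern, against 1 of 3 in vehicle and in CORT. Stress 4+5+6 had neither pattern alone, with *Xist* at 751 CPM and *Ddx3y* at 16.8 CPM. The sex term counted it with the female libraries, so that term describes this library only in part. With the sex of the mice as a term, a choice made after seeing the data, 81 genes passed, 54 of which were among the 56, and the 21 named genes that passed did so with the same sign.
*Fkbp5*, *Tsc22d3*, *Sgk1*, *Ddit4* and *Klf9* rose in both, and their interaction did not pass (adjusted p = 0.114, 0.0991, 0.157, 0.64 and 0.333). *Zbtb16*, *Pdk4* and *Angptl4* had log2 fold changes of 4.67, 4.10 and 2.79 in CORT and 5.91, 5.70 and 3.90 in stress, with an interaction adjusted p of 0.61, 0.284 and 0.123. Their mean levels were 6.81, 9.23 and 18.8 CPM in vehicle and 1, 1.46 and 5.61 CPM in Ctrl. They were 168, 158 and 131 CPM in CORT and 61.2, 75.7 and 83.6 CPM in stress. *Fkbp5* was at means of 171 CPM in vehicle and 63.9 CPM in Ctrl, and of 916 CPM in CORT and 210 CPM in stress. *Dbp* and *Tef* fell by 4.24 and 2.30 in CORT and by 3.01 and 2.35 in stress (adjusted p = 0.3 and 0.965 for the interaction). *Hpgd* rose in both and by more in CORT (3.10 against 1.48, interaction adjusted p = 5.4e-04), as did *Trp53inp1* (3.83 against 1.87, 0.0066), *Sesn1* (2.38 against 0.64, 0.00434) and *Glul* (2.10 against 0.83, 0.00747), and these 4 passed the interaction in each of the 12 fits without 1 library. The control groups differed in level for *Trp53inp1*, with means of 14.1 CPM in vehicle and 24 CPM in Ctrl. Its means were 199 CPM in CORT and 87.5 CPM in stress. *Sesn1* was at 35.6, 42.1 and 41.3 CPM in Ctrl, each above its vehicle libraries given earlier. The increase of *Sesn1* in stress had an adjusted p of 0.0358, and of 0.115 to 0.181 in each fit without 1 library, a check added after seeing the data, except that without stress 3. *Clic4*, *Cables1*, *Fut4*, *Mt1*, *Mt2*, *Arrdc3* and *Rrm2* passed the interaction and the test in CORT without passing in stress, where their log2 fold changes were 0.33, 0.38, 0.55, 0.13, 0.17, 0.58 and -0.14. Of these, *Clic4* and *Rrm2* passed the interaction in each of these 12 fits, and the others missed it without 1 (*Cables1*) to 9 (*Arrdc3*) of them in turn. Without stress 3, *Clic4*, *Fut4* and *Arrdc3* did pass in stress, at adjusted p-values of 0.0475, 0.0345 and 0.0313. *Cables1*, *Mt1*, *Mt2* and *Rrm2* did not. *Mmp7*, *Reg3b* and *St3gal4* fell in CORT and had values of 0.87, 1.54 and 2.42 in stress (adjusted p = 0.0285, 0.00767 and 0.0372). The control groups of the 2 comparisons also differed in level for *Mmp7* and *Reg3b*. *Mmp7* was at a mean of 90.5 CPM in vehicle and 22.1 CPM in Ctrl, while CORT and stress were at 36.5 and 40.2 CPM. *Reg3b* was at 317 CPM in vehicle and 133 CPM in Ctrl, and at 62.6 CPM in CORT and 387 CPM in stress. *St3gal4* was at 20.8 and 18.6 CPM in vehicle and Ctrl, and at 90.7, 29.8 and 178 CPM in the 3 stress libraries. In stress *Mmp7* and *St3gal4* missed the threshold in each fit without 1 library (up to 0.113 and 0.191) except that without stress 3, and *Reg3b* without Ctrl 2 (0.0506). Their interaction was lost without 9 of the 12 libraries in turn for *St3gal4* (up to 0.102) and without 5 for *Reg3b* (up to 0.0824), and *Mmp7* passed it in all 12 fits. *St3gal4* missed the threshold in CORT without CORT 2, CORT 4, vehicle 3 or vehicle 5, at adjusted p-values up to 0.1, and *Reg3b* as given above. *Lgr4*, *Fzd2* and *Epha1*, which fell in CORT, had -0.32, -0.08 and 0.06 in stress with an interaction adjusted p of 0.0654, 0.0939 and 0.0973, so a difference was not detectable at this number of libraries. Other genes of the stem cell, Wnt, Eph and Notch lists fell in both comparisons. In stress *Ascl2* had -1.23 (adjusted p = 3.4e-04), *Efna3* -1.19 (0.0101), *Nrarp* -0.72 (0.0101) and *Fzd7* -0.65 (0.0121). *Ascl2* passed there in each fit without 1 library. *Efna3*, *Nrarp* and *Fzd7* missed the threshold without Ctrl 1, at 0.0695, 0.0778 and 0.068. *Lgr5* and *Scn2b* had -0.08 and -0.41 in stress and did not pass.

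**Figure D5:**
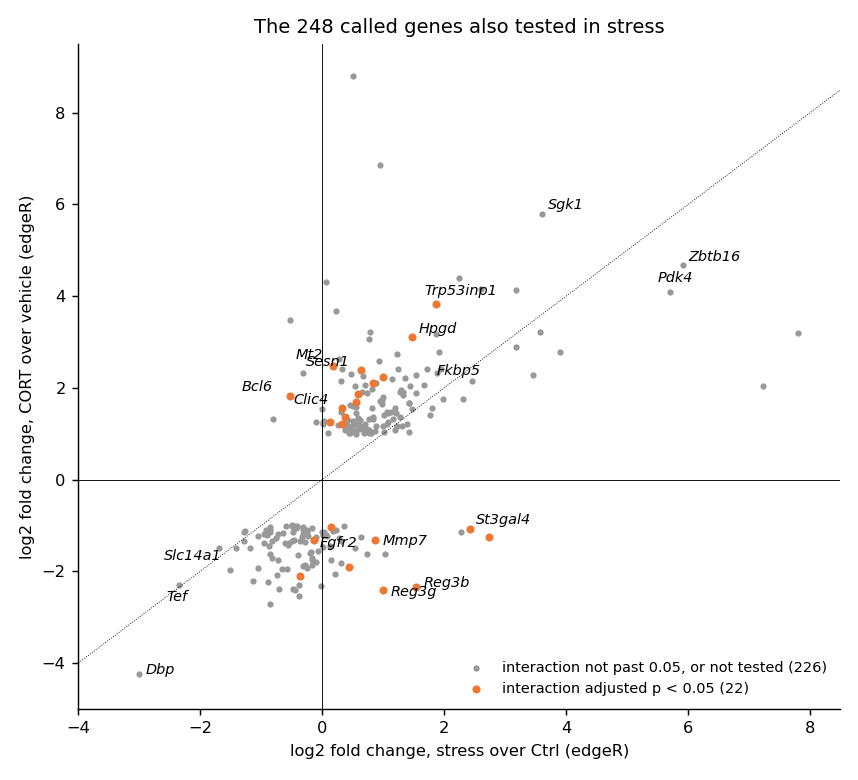
The 248 genes called in CORT that were also tested in stress, with the log2 fold change of stress over Ctrl on the x axis and of CORT over vehicle on the y axis, both from edgeR. The dotted line marks equal change, orange points the 22 genes past the interaction test, and *Mmp7*, *Reg3b* and *St3gal4* lie below 0 for CORT and above 0 for stress.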

How the data were processed

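RNA was sequenced from sorted ISCs as read pairs of 150 bp. For each gene and library the authors deposited an estimated count, which the submitters' processing notes attribute to HISAT2 2.2.1 and StringTie 2.2.1 on mm10, whereas the methods of the study name another counter, featureCounts. The authors also deposited FPKM, TPM and mean coverage per gene from StringTie for each library. Here the estimated counts were rounded and fitted with edgeR 4.0.16 in R 4.3.3 (TMM scaling, filterByExpr, quasi-likelihood F-test) on the 6 vehicle and CORT libraries, and p-values were adjusted by Benjamini-Hochberg over all genes tested. A gene was called at an adjusted p below 0.05 and more than 2-fold, and "rose" and "fell" stand for the adjusted p alone. The interaction was fitted on all 12 libraries. Standard errors were taken from the fold change and its F. CPM used TMM factors over 12 libraries, and TPM the deposited values. The coverage was not used in any test. Alternatives used DESeq2 1.42.0, limma 3.58.1 on log2(FPKM + 1) and log2(FPKM + 0.1), other filters, thinned counts, the sex of the mice and leaving out each library. The scripts were tested on simulated data. Genes were named by adjusted p, by fold, by membership of 49 lists, 73 genes being in more than 1, and by a short list given whatever the values. Members and lists were chosen with earlier results of these data known.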

Additional observations from a re-analysis of the deposited data

Results flagged for a closer look

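The effects of corticosterone and of stress differed, by the test of the difference over the 12 libraries (edgeR's quasi-likelihood test, adjusted p below 0.05), for 21 of the genes named here. The values that follow are the log2 change in CORT minus that in stress. It was positive for *Hpgd* (1.63), *Trp53inp1* (1.96), *Fut4* (1.16), *Clic4* (1.23), *Cables1* (0.99), *Sesn1* (1.74), *Mt1* (1.13), *Mt2* (2.31), *Bcl6* (2.36), *Rrm2* (1.14), *Idi1* (0.91), *Arrdc3* (1.29) and *Glul* (1.27). It was negative for the growth factor receptor gene *Fgfr2* (-1.17), for *Mmp7* (-2.18), *Reg3g* (-3.4), *Reg3b* (-3.89), *Acadl* (-1.05), *St3gal4* (-3.48), *Gramd3* (-1.27) and *Fabp1* (-4.65). For *Acadl* the control groups differed in level, with means of 195 CPM in vehicle and 92.3 CPM in Ctrl. CORT and stress were at 124 and 122 CPM. *Fabp1*, a fatty acid binding protein gene and the most abundant enterocyte marker, had a log2 fold change of -1.26 in CORT (adjusted p = 0.0643) and 3.39 in stress (adjusted p = 0.0221, and 0.115 to 0.142 without any 1 of the Ctrl libraries). It was at 9.06, 8.61 and 10.9 CPM in Ctrl and 54.8, 32.7 and 212 CPM in stress 1+2, 3 and 4+5+6. Without stress 4+5+6 its adjusted p in stress was 0.00276. In the same order of stress libraries, *Fabp2* was at 175, 93.4 and 309 CPM and the goblet cell marker *Fcgbp* at 528, 257 and 859 CPM. In each of the 12 fits without 1 library *Hpgd*, *Trp53inp1*, *Clic4*, *Sesn1*, *Fgfr2*, *Mmp7*, *Rrm2*, *Glul* and *Gramd3* passed the test of the difference, and the other 12 genes missed it without at least 1 library. The number of genes past this test depended strongly on single libraries, as given below.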

How the results depend on the processing

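With limma on log2(FPKM + 1), 92 genes were higher and 67 lower by more than 2-fold, and 64 and 43 without a filter. Leaving out 1 library at a time gave 104 (without CORT 4) to 163 (without vehicle 3) higher and 74 (without CORT 4 or vehicle 6) to 105 lower genes. The remaining alternatives stayed within 1.5 times of the counts reported, at 130 to 192 higher and 96 to 147 lower genes. The interaction was passed by 389 genes with DESeq2 and by 12 (without Ctrl 1) to 241 (without stress 3) genes when 1 library was left out, with 20 without stress 1+2, and by 81 with the sex of the mice as a term. The cause was not tested. Of the 173 named genes that passed, 79 did so under every alternative, 94 missed the threshold under at least 1 and 43 under 5 or more, and no named gene that passed changed its direction. The share of higher genes among the calls was 60.6%, and 50.8% with log2(FPKM + 0.1) and 51.8% with at least 10 counts in every library. No paired analysis was possible because the vehicle and CORT libraries share only the replicate number 5. With 3 libraries a group and the shallow vehicle libraries, genes near the floor could not be resolved.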
